A study of Mus musculus with 9 samples.

Results

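The genes described here are proliferin and a set of angiogenic growth factors, their receptors and inhibitors in mouse prostate cancer cells: Prl2c2, Vegfb, Vegfc, Pgf, Angptl4, Nrp1, Nrp2, Thbs1 and Thbs2. All 9 were found by symbol among the 12842 genes of the table. Prl2c2 was selected on its higher value in cells with silenced Nsd2 than in control cells, so its values are given as a description, with no test, in every comparison, since each holds silenced or control cells. RNA-seq profiles of cultured NPK cells were analysed in 3 groups of 3 libraries, made from polyadenylated RNA. NPK cells, a mouse prostate cancer line, were isolated from lung metastases, and all groups share their engineered genotype, which includes an inducible Cre and KrasLSL-G12D/+. The control group was labelled only as control cells, and whether these carried a control shRNA was not given in the labels. The labels of the MCTP group number the treatment MCTP39, MCTP40 and MCTP41, 1 library each, whereas the study describes MCTP-39 only, as a putative inhibitor of NSD2 whose specificity it leaves in doubt. Whether this group holds 1 compound or 3 compounds in 1 library each cannot be told from these sources; in the second case its SEs and p-values would also hold differences between compounds. The dose and time of this treatment were not found in the sources used here. The shNsd2 group carried shRNA against Nsd2 by its titles, whereas their source label names Nsd2 for the first, Nsd3 for the next and Nsd4 for the last library. Nothing in the labels says that replicates were separate cultures, so p-values measure the spread between these libraries, which may be technical.

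Proliferin is a secreted hormone of the prolactin family that is best known from the trophoblast giant cells of the mouse placenta, where it promotes the growth of blood vessels. The ligands of the vascular endothelial growth factor (VEGF) family act on receptor tyrosine kinases of endothelial cells, and neuropilins serve as co-receptors that bind both VEGF proteins and class 3 semaphorins. The thrombospondins encoded by Thbs1 and Thbs2 are large matrix proteins that inhibit vessel growth. Tumor cells which secrete ligands and inhibitors can thus act on vessels in opposite directions.

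The silenced gene was examined first. Nsd2, listed as Whsc1, had values of 12.48, 12.43 and 12.42 on the deposited log2 scale in the control libraries, 12.15, 12.21 and 12.07 in the MCTP libraries, and 11.56, 11.61 and 11.68 in the shNsd2 libraries. The groups did not overlap. Here and below, differences are on this log2 scale and adjusted p-values come from limma with adjustment by Benjamini and Hochberg over all genes of a comparison. Nsd2 fell by 0.83 in shNsd2 cells (SE 0.0408, limma adjusted p = 2.26e-06), to 56.3% of control, and by 0.30 in MCTP cells (SE 0.0537, adjusted p = 0.00562). After correction for the GC content of transcripts, the difference in MCTP cells was -0.12 and did not pass the threshold of 0.05 (adjusted p = 0.0775).

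The 3 MCTP libraries were less alike than the others. Over all genes, the median absolute difference between a library and the mean of its other replicates was 0.126 for MCTP replicate 2 and 0.101 for MCTP replicate 3, and between 0.032 and 0.0688 for the control and shNsd2 libraries and MCTP replicate 1. Without MCTP replicate 2, 7384 genes passed the threshold between MCTP and control, against 4305 with it, and 7781 between shNsd2 and MCTP, against 5276 with it. The members past the threshold without this library numbered 6 of 8 in each of these comparisons, the same number as with it, beside a larger share of all genes (60.4% and 63.7%).

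Markers were then compared with the labelled cell type. Of 8 epithelial markers, 6 were analysed: Krt8 (16.28 ± 0.074 in control, SD, n = 3), Krt18 (15.38 ± 0.12) and Cdh1 (11.77 ± 0.07) were well above the low-value limit of 3.78 used for testing, whereas Epcam lay below it at 3.55 ± 0.006, and Krt5 and Cldn7 were not analysed here. Of 5 tested, 1 was higher and 3 lower in shNsd2 than in control cells (median log2 difference -0.09), 1 higher and 1 lower in MCTP than in control cells (0.03), and 1 higher and 3 lower in shNsd2 than in MCTP cells (-0.12). Krt14, a keratin of basal cells, rose by 0.78 in shNsd2 and by 1.19 in MCTP cells, and Cdh1 fell by 0.34 in MCTP cells. Trp63, another marker of basal cells, did not rise with Krt14. From 4.87 in control it differed by -0.09 in shNsd2 (adjusted p = 0.0464) and by 0.03 in MCTP cells (0.586). Its difference between shNsd2 and MCTP cells was -0.12 (0.0154). Between shNsd2 and MCTP cells the differences were -0.46 for Krt8 and -0.40 for Krt14, the last with an adjusted p of 0.052 without shNsd2 replicate 3. Summed on the linear scale, the epithelial markers reached 16.85, 17.02 and 16.97 (log2) in control, 17.14, 16.93 and 17.26 in MCTP, and 16.89, 16.83 and 16.73 in shNsd2 libraries.

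Among 10 endothelial markers, 2 were analysed: Cdh5 lay below the low-value limit in each group (3.50 in control), and Egfl7, at 8.74 in control cells, did not pass the threshold in any comparison. Among 7 leukocyte markers, Cd68 alone was analysed, with a value of 6.53 ± 0.056 in control, 7.26 ± 0.15 in MCTP and 6.76 ± 0.035 in shNsd2 cells. It rose by 0.73 with MCTP (adjusted p = 0.000688) and by 0.23 in shNsd2 cells (0.00227), and was -0.50 apart between shNsd2 and MCTP cells. Of 7 fibroblast markers, 4 were analysed and 3 tested. Col3a1 (10.80 in control cells) fell by 0.28 in shNsd2 cells, and Col1a1 fell by 0.30 in shNsd2 and by 0.33 in MCTP cells. Pdgfra, near the low-value limit at 3.99 in control cells, rose by 0.13 in shNsd2 cells (adjusted p = 0.00161). Dcn lay below the limit at 2.33. The summed level, in which Col3a1 was the highest gene, was 11.12, 10.92 and 11.06 in control libraries. It was 10.76, 10.75 and 10.75 in shNsd2 and 10.96, 10.90 and 10.81 in MCTP libraries. Of 3 fibroblast markers tested, 1 was higher and 2 lower in shNsd2 than in control cells (median -0.28), 1 was lower in MCTP than in control cells (-0.12), and 1 was higher and 1 lower in shNsd2 than in MCTP cells (0.03). The part of these markers in the results that follow was not tested, and in such bulk libraries fewer cells of a type and less RNA per cell cannot be told apart.

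Between shNsd2 and control cells, 5836 of 12205 genes tested passed the threshold (47.8%), 23.1% as higher and 24.8% as lower. Of the 8 members tested there, leaving out Prl2c2, 5 passed (Vegfc, Angptl4, Nrp1, Thbs1 and Thbs2), all 5 of them lower, and the median log2 difference of the 8 was -0.39, beside 0.002 for all genes. Between MCTP and control cells, 35.2% of 12216 genes passed, 18.0% as higher and 17.2% as lower. There 6 of 8 members passed, with Pgf, Angptl4 and Thbs1 higher and Nrp1, Nrp2 and Thbs2 lower, and a median of -0.08 beside -0.006 for all genes. Between shNsd2 and MCTP cells, 43.2% of 12217 genes passed, 20.6% as higher and 22.6% as lower, and 6 of 8 members did, with Vegfb and Nrp2 higher and Vegfc, Angptl4, Nrp1 and Thbs1 lower in shNsd2 cells (median -0.15, beside 0.007 for all genes). The comparisons share libraries: both comparisons with control use the same 3 control libraries, and the direct comparison uses the same treated libraries. All 9 members passed the filter on low values.

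**Figure D1:**
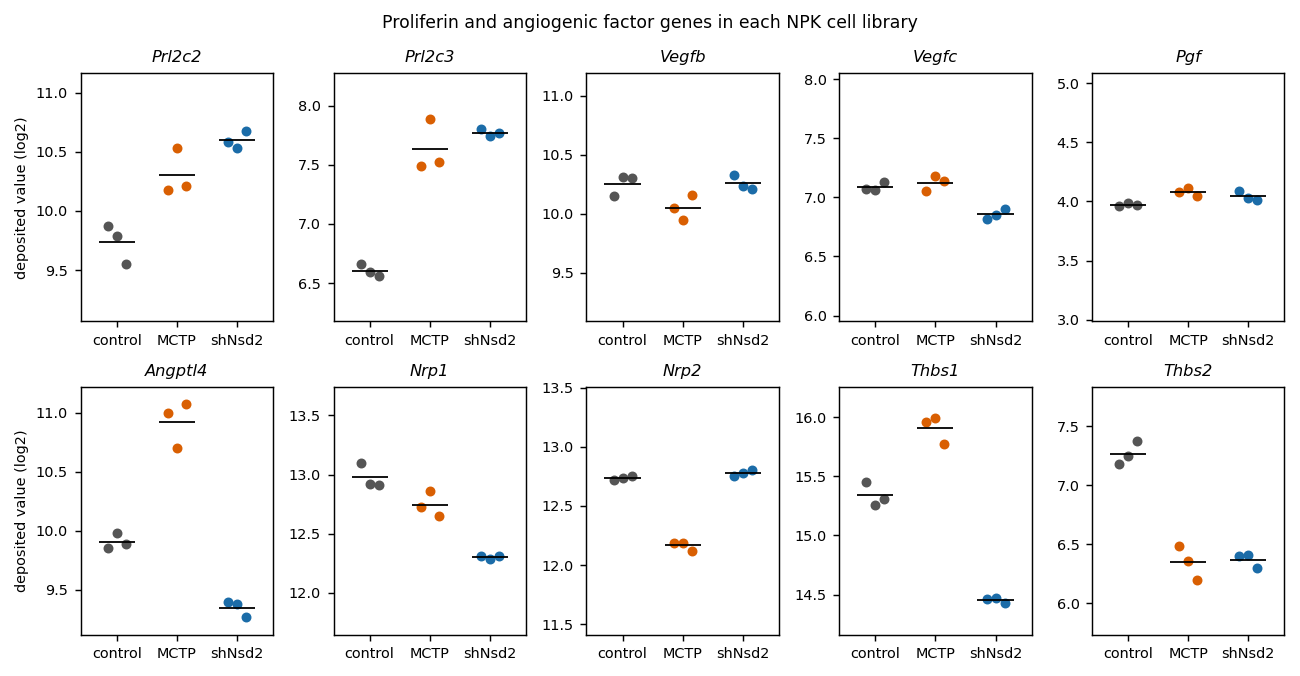
Deposited log2 values (vertical axis) of the 9 members and of Prl2c3 in each library of the control, MCTP and shNsd2 groups (horizontal axis), with points for single libraries, a line for the group mean, and the same length of vertical axis in every panel. Angptl4 and Thbs1 lay highest in the MCTP group and lowest in the shNsd2 group, and the 3 MCTP libraries of Nrp2 (12.12 to 12.19) lay below all others.

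Prl2c2, the gene of proliferin, had values of 9.87, 9.79 and 9.55 in the control libraries, 10.18, 10.53 and 10.21 in the MCTP libraries, and 10.58, 10.53 and 10.68 in the shNsd2 libraries. Every treated library lay above every control library, and MCTP replicate 2 reached the level of the lowest shNsd2 library. The mean was 0.86 higher in shNsd2 than in control cells, a ratio of 1.82, and 0.29 higher than in MCTP cells; the gene was chosen for its higher value in the silenced cells. The mean of MCTP cells was 0.57 above control, a difference that uses the same control libraries as the choice of the gene. In order of level, control was followed by MCTP and shNsd2, with SDs of 0.168, 0.195 and 0.0769 (n = 3). After the GC correction the difference between shNsd2 and MCTP cells was 0.14 and that between MCTP and control cells 0.77.

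Prl2c2 lies on chromosome 13 of GRCm38 (chr13:12996125-13005383, minus strand), near Prl2c3 (chr13:12790816-12800079, minus strand), another member of the proliferin subfamily. Prl2c3 had values of 6.66, 6.59 and 6.56 in control, 7.49, 7.89 and 7.52 in MCTP, and 7.80, 7.74 and 7.77 in shNsd2 libraries. All treated libraries lay above the control libraries, and MCTP replicate 2 lay above the shNsd2 libraries. The mean was 1.03 above control in MCTP cells and 1.17 above control in shNsd2 cells, both given with no test because of the sequence that this gene shares with Prl2c2.

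The transcripts of both genes in GENCODE M21 are nearly the same. Of the 768 stretches of 75 bases in the Prl2c2 transcript, the read length given in the labels, 71.2% also occur in Prl2c3, 20.1% in Gm7040 and 8.20% in Prl2c5, and 80.1% occur in at least 1 other gene. The coding sequences, each of 675 bases, are 99.6% identical and differ at 3 positions, counted from the first base of the start codon with the base of Prl2c2 first: T14C, C200A and T319G. The stretches that hold these differences are shown because they are the coding bases by which a read can be assigned to either gene, with the differing bases in capitals. The first pair covers bases 1 to 60 and the second pair bases 190 to 329.
Prl2c2: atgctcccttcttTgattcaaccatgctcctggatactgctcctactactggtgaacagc
Prl2c3: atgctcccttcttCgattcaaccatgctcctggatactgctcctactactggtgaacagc
Prl2c2: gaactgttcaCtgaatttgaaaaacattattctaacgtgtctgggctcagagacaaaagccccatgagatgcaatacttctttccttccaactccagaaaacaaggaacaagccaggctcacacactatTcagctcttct
Prl2c3: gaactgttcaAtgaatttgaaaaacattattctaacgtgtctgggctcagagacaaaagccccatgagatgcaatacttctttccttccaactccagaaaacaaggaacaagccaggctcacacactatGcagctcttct
How reads that match several genes were counted was not given in the sources used here, so the split between these genes is uncertain. On the linear scale, the sum of both genes was 10.02, 9.94 and 9.72 (log2) in control, 10.39, 10.75 and 10.42 in MCTP, and 10.78, 10.73 and 10.86 in shNsd2 libraries. Its group means were 9.89 ± 0.16, 10.52 ± 0.2 and 10.79 ± 0.069 (SD, n = 3).

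Of 27 genes listed for the prolactin family and its receptors, 4 were analysed. Igf2r, the mannose 6-phosphate receptor to which proliferin binds, had a mean of 12.92 in control cells and fell by 0.39 in shNsd2 cells (SE 0.0355, adjusted p = 5.29e-05), while it differed by -0.09 in MCTP cells (adjusted p = 0.19). Igf2r was also lower in shNsd2 than in MCTP cells, by -0.30 (adjusted p = 0.00172). Prl6a1 lay below the low-value limit at 3.50, and the prolactin receptor gene Prlr was not analysed here. With Prl2c2 and Prl2c3 left untested, Igf2r was the 1 gene of the list that was tested. Of 6 markers of trophoblast giant cells and their precursors, Cdx2 alone was analysed: its mean was 10.17 in control cells, it fell by 0.45 in shNsd2 cells and differed by 0.05 in MCTP cells (adjusted p = 0.553) and by -0.50 between shNsd2 and MCTP cells (0.00073).

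The 5 genes whose values over the 9 libraries were most like those of Prl2c2, among the 6421 genes above the median level, were Mcl1 (Pearson r = 0.958), Slc39a6 (0.954), Ccnyl1 (0.945), Med20 (0.931) and Prrg4 (0.923). These correlations describe 9 libraries in 3 groups and carry no test. Their group means lay closer together than those of Prl2c2, with a Mcl1 mean of 11.68 in control, 11.83 in MCTP and 11.90 in shNsd2 cells. Prl2c3, which lies below that median level, had r = 0.956.

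Among the VEGF ligands, Vegfb, which binds VEGF receptor 1 and neuropilin-1, had values of 10.15, 10.31 and 10.30 in control, 10.05, 9.95 and 10.16 in MCTP, and 10.33, 10.24 and 10.21 in shNsd2 libraries. The control and shNsd2 libraries overlapped, and the MCTP libraries were mostly lower. The difference from control was 0.01 in shNsd2 cells (95% interval -0.11 to 0.13, adjusted p = 0.903) and -0.20 in MCTP cells (-0.37 to -0.03, adjusted p = 0.0656). Vegfb was 0.21 higher in shNsd2 than in MCTP cells (SE 0.0665, adjusted p = 0.0376), a call that did not hold after median centring (0.0697), after quantile normalization (0.0772) or without shNsd2 replicate 1, 2 or 3 (0.138, 0.0954 and 0.0684) or MCTP replicate 1 (0.11). The difference between MCTP and control passed the threshold with all 9 libraries in the fit (0.0329), without MCTP replicate 3 (-0.25, 0.0444) and after the GC correction (-0.30, 0.000779).

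Vegfc, a ligand best known for the growth of lymphatic vessels, had values of 7.07, 7.06 and 7.13 in control, 7.05, 7.18 and 7.14 in MCTP, and 6.82, 6.85 and 6.90 in shNsd2 libraries. The shNsd2 libraries lay below all others, and control and MCTP libraries overlapped. Vegfc fell by 0.23 in shNsd2 cells (SE 0.0408, adjusted p = 0.00185), to 85.3% of control, and was lower than in MCTP cells (-0.27, SE 0.05, adjusted p = 0.00484). In MCTP cells the difference from control was 0.04 (95% interval -0.09 to 0.16, adjusted p = 0.594). It was 0.1348 after the GC correction (adjusted p = 0.0732), 0.0714 after median centring, 0.0181 after quantile normalization, and 0.0743 and 0.0105 without MCTP replicate 1 or 2, and passed the threshold in no alternative run.

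Pgf, placental growth factor, was close to the low-value limit, with values of 3.96, 3.99 and 3.97 in control, 4.08, 4.11 and 4.05 in MCTP, and 4.09, 4.03 and 4.01 in shNsd2 libraries. The control libraries were the lowest, and both treated groups overlapped. Pgf rose by 0.11 with MCTP (SE 0.0241, adjusted p = 0.0122), a call that was lost without a mean-variance trend (0.0763) and after the GC correction (0.01, 0.87). In shNsd2 cells the difference was 0.07 (adjusted p = 0.052), which passed the threshold without the filter on low values (0.0402), without shNsd2 replicate 3 (0.0337), after quantile normalization (0.0478) and after median centring (0.0325). It did not pass in the other alternatives run, such as without a mean-variance trend (0.136), without shNsd2 replicate 1 (0.0469, adjusted p = 0.175) and after the GC correction (0.0206, adjusted p = 0.585). The transform of the values is not named, and if it pulls low values together, changes of weakly expressed genes such as Pgf would be understated, which was not tested. Figf, the gene of the lymphatic ligand VEGF-D, rose by 0.26 with MCTP (SE 0.0322, adjusted p = 0.00115) from a control mean of 5.26. Of 4 VEGF ligands, 1 was lower in shNsd2 cells (median 0.04), 2 were higher in MCTP cells (0.07), and 1 was higher and 2 lower in shNsd2 than in MCTP cells (-0.12).

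Angptl4, a secreted inhibitor of lipoprotein lipase that also acts on vessels, had values of 9.85, 9.98 and 9.89 in control, 11.00, 10.70 and 11.07 in MCTP, and 9.40, 9.38 and 9.27 in shNsd2 libraries. The groups did not overlap, and MCTP replicate 2 was the lowest of its group. Angptl4 rose by 1.02 with MCTP (SE 0.0969, adjusted p = 0.000387), a ratio of 2.02, and fell by 0.55 in shNsd2 cells (SE 0.0507, adjusted p = 5.32e-05), to 68.3% of control. The direct difference between shNsd2 and MCTP cells was -1.57 (SE 0.0976, adjusted p = 4.76e-05), so that shNsd2 cells had 33.7% of the value in MCTP cells.

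Angptl2, another angiopoietin-like gene, fell by 0.49 in shNsd2 cells (adjusted p = 1.4e-05) and by 0.36 in MCTP cells (0.00281) from a control mean of 13.13. Angpt1, a ligand of the Tie2 receptor, fell by 0.80 in shNsd2 cells (SE 0.0998, adjusted p = 0.000289). In MCTP cells Angpt1 fell by 0.50 (adjusted p = 0.0338), but this call was lost without control replicate 1, 2 or 3 (0.1, 0.0678 and 0.05) and without MCTP replicate 1 or 3 (0.124 and 0.092). Angptl6 was 0.36 higher in shNsd2 than in MCTP cells (0.00123). In all, 4 of 11 genes of the angiopoietin system were tested, of which 3 were lower in shNsd2 cells (median -0.52), 1 was higher and 2 were lower in MCTP cells (-0.29), and 1 was higher and 1 lower in shNsd2 than in MCTP cells (-0.22).

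Of the co-receptors, Nrp1 had values of 13.10, 12.92 and 12.91 in control, 12.73, 12.86 and 12.65 in MCTP, and 12.31, 12.29 and 12.31 in shNsd2 libraries. The groups did not overlap, in the order control, MCTP and shNsd2. Nrp1 fell by 0.67 in shNsd2 cells (SE 0.051, adjusted p = 2.01e-05), to 62.7% of control, and was lower than in MCTP cells (-0.44, SE 0.0605, adjusted p = 0.00131). The fall by 0.23 with MCTP was at the edge of the threshold (SE 0.0763, adjusted p = 0.0477): it did not pass after quantile normalization (0.0923), median centring (0.0619) or GC correction (-0.06, 0.217), without the mean-variance trend (0.0508), without control replicate 1, 2 or 3 (0.156, 0.0935 and 0.0787), or without MCTP replicate 1 or 3 (0.145 and 0.128).

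Nrp2, which binds VEGF-C and class 3 semaphorins, had values of 12.72, 12.74 and 12.75 in control, 12.19, 12.19 and 12.12 in MCTP, and 12.75, 12.78 and 12.80 in shNsd2 libraries. The MCTP libraries were lower than all others, and the control and shNsd2 libraries met at 12.75. Nrp2 fell by 0.57 with MCTP (SE 0.0462, adjusted p = 0.000201), to 67.5% of control, and was 0.61 higher in shNsd2 than in MCTP cells (SE 0.0438, adjusted p = 8.47e-05). The difference between shNsd2 and control cells was 0.04 (95% interval -0.03 to 0.11, adjusted p = 0.318). Flt1, the gene of VEGF receptor 1, had a mean of 7.92 in control, 7.95 in MCTP and 7.94 in shNsd2 cells and passed the threshold in no comparison run (adjusted p between 0.69 and 0.834). Flt4 was below the low-value limit at 2.57 in control cells, and Kdr was not analysed here. Of 3 receptors and co-receptors tested, 1 was lower in shNsd2 cells (median 0.02), 2 were lower in MCTP cells (-0.23), and 1 was higher and 1 lower in shNsd2 than in MCTP cells (-0.01).

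Of the class 3 semaphorins and plexins listed beside the neuropilins, 11 of 12 genes were tested. In shNsd2 cells 2 were higher and 6 lower (median -0.12), in MCTP cells 3 higher and 2 lower (-0.04), and between shNsd2 and MCTP cells 2 were higher and 4 lower (-0.07). Sema3a, a ligand of neuropilin-1, fell by 0.90 in shNsd2 cells (SE 0.0623, adjusted p = 1.26e-05), while its difference in MCTP cells was -0.30 (adjusted p = 0.115), and the treated groups differed by -0.60 (0.00992). Sema3b fell by 0.42 in shNsd2 cells and was -0.31 apart from MCTP cells. Sema3e fell by 0.31 in shNsd2 and by 0.51 in MCTP cells. Sema3d, at 4.17 in control cells, rose by 0.32 with MCTP and was -0.39 apart between shNsd2 and MCTP cells. Among the plexins, which are signaling receptors for semaphorins, Plxna2 fell by 0.40 in shNsd2 cells and was -0.33 apart from MCTP cells, Plxna4 fell by 0.56 with MCTP and was 0.44 higher in shNsd2 than in MCTP cells, and Plxna1 rose by 0.22 in shNsd2 and 0.29 in MCTP cells from a control mean of 13.05.

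Of the inhibitors, Thbs1 had values of 15.45, 15.26 and 15.31 in control, 15.96, 15.99 and 15.77 in MCTP, and 14.46, 14.47 and 14.43 in shNsd2 libraries. The groups did not overlap, and the shNsd2 libraries were the most alike. Thbs1 rose by 0.57 with MCTP (SE 0.0845, adjusted p = 0.00265), a ratio of 1.48, and fell by 0.89 in shNsd2 cells (SE 0.0526, adjusted p = 5.55e-06), to 54% of control. The direct difference between shNsd2 and MCTP cells was -1.46 (SE 0.0693, adjusted p = 2.07e-05).

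Thbs2, a related thrombospondin, had values of 7.18, 7.25 and 7.37 in control, 6.49, 6.36 and 6.20 in MCTP, and 6.40, 6.41 and 6.30 in shNsd2 libraries. The control libraries lay above all treated libraries, and the treated groups overlapped. Thbs2 fell by 0.90 in shNsd2 cells (SE 0.0544, adjusted p = 5.82e-06) and by 0.91 in MCTP cells (SE 0.0825, adjusted p = 0.000308), to 53.7% and 53.1% of control, and the treated groups differed by 0.02 (95% interval -0.16 to 0.19, adjusted p = 0.863). Cd47, a receptor of thrombospondin-1, fell by 0.38 in MCTP cells (adjusted p = 0.00125) and by 0.18 in shNsd2 cells (0.0038). Of 4 genes of the thrombospondin system, 1 was higher and 3 lower in shNsd2 cells (median -0.54), 2 were higher and 2 lower in MCTP cells (-0.06), and 1 was higher and 2 lower in shNsd2 than in MCTP cells (-0.06).

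Beyond the members, the lists held 61 other genes of these pathways that were in the table. Between shNsd2 and control cells, 37 of 57 tested passed (64.9%), 13 higher and 24 lower, with a median log2 difference of -0.06. Between MCTP and control cells, 28 of 57 passed (49.1%), 14 higher and 14 lower (median 0.02), and between shNsd2 and MCTP cells 31 of 57 did (54.4%), 11 higher and 20 lower (median -0.07). The genes of these lists were chosen with earlier results known and are described beside the shares of all genes given above.

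**Figure D2:**
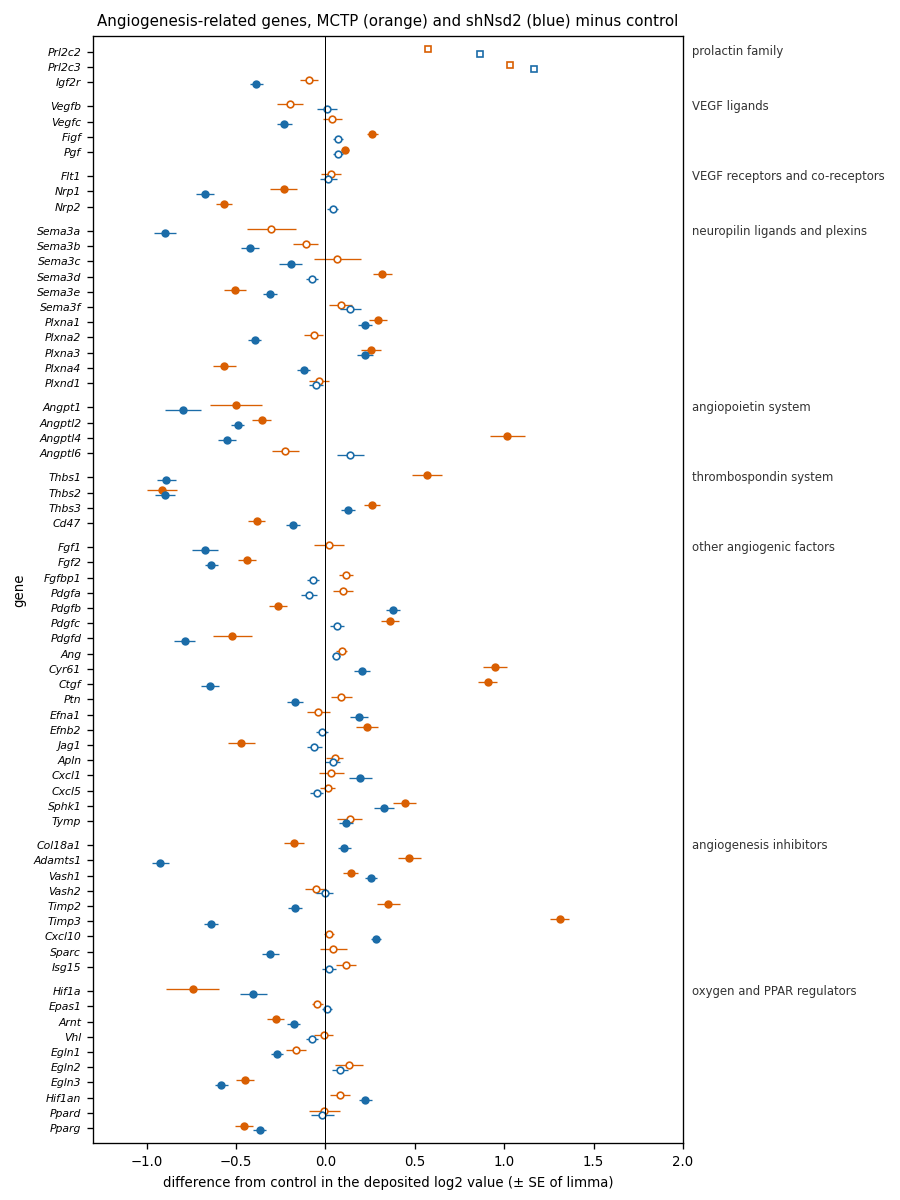
Differences from control in the deposited log2 value (horizontal axis) for genes of the pathway lists (vertical axis). MCTP cells are in orange and shNsd2 cells in blue, with bars for the SE of limma where a gene was tested. Filled circles passed the threshold of 0.05, open circles did not, and open squares were not tested; Timp3 lay at 1.31 in MCTP and at -0.64 in shNsd2 cells.

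Among other angiogenic factors, 19 of 25 were tested. In shNsd2 cells 6 were higher and 5 lower (median -0.02), in MCTP cells 5 were higher and 4 lower (0.09), and between shNsd2 and MCTP cells 4 were higher and 9 lower (-0.18). Ctgf, a matricellular protein of the CCN family, rose by 0.91 with MCTP (SE 0.0526, adjusted p = 5.7e-05) and fell by 0.64 in shNsd2 cells (SE 0.0481, adjusted p = 1.82e-05), and the treated groups differed by -1.55 (SE 0.0569, adjusted p = 1.3e-05). Cyr61, of the same family, rose by 0.95 with MCTP and by 0.21 in shNsd2 cells, and was -0.74 apart between shNsd2 and MCTP cells.

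The fibroblast growth factor genes Fgf1 and Fgf2 fell by 0.67 and by 0.64 in shNsd2 cells, and in MCTP cells Fgf2 fell by 0.44 while Fgf1 differed by 0.02 (adjusted p = 0.882). Fgf1 was -0.69 apart between shNsd2 and MCTP cells. Of the platelet-derived growth factors, Pdgfd fell by 0.79 in shNsd2 and by 0.52 in MCTP cells, the second with an adjusted p of 0.051 without MCTP replicate 1. Pdgfb rose by 0.38 in shNsd2 cells and fell by 0.27 in MCTP cells, 0.64 apart between the treated groups, and Pdgfc rose by 0.36 with MCTP. Jag1, a Notch ligand, fell by 0.47 with MCTP and was 0.41 higher in shNsd2 than in MCTP cells. Sphk1, a sphingosine kinase, rose by 0.33 in shNsd2 and by 0.44 in MCTP cells.

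Of 11 other genes listed as inhibitors of vessel growth, 9 were tested. In shNsd2 cells 3 were higher and 4 lower (median -0.00), and in MCTP cells 4 were higher and 1 lower (0.12). Between shNsd2 and MCTP cells 3 were higher and 4 lower (-0.10). These counts and medians include Vash2 and Isg15, which are not established inhibitors and passed the threshold in no comparison. Timp3, an inhibitor of metalloproteinases that also binds VEGF receptor 2, rose by 1.31 with MCTP (SE 0.0517, adjusted p = 1.8e-05), fell by 0.64 in shNsd2 cells (SE 0.0398, adjusted p = 6.72e-06), and was -1.95 apart between shNsd2 and MCTP cells. Adamts1, a metalloproteinase with thrombospondin repeats, rose by 0.47 with MCTP and fell by 0.92 in shNsd2 cells, -1.39 apart between these groups. Timp2, at 14.68 in control cells, rose by 0.35 with MCTP and fell by 0.17 in shNsd2 cells, -0.52 apart between these groups. Sparc, a matricellular protein, fell by 0.31 in shNsd2 cells and was -0.35 apart from MCTP cells.

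The regulators of the response to oxygen and of PPAR target genes were tested for 10 of 11 listed genes, since Angptl4 is a known target of PPAR receptors and of hypoxia. In shNsd2 cells 1 was higher and 5 lower (median -0.13), and in MCTP cells 4 were lower (-0.10). Between shNsd2 and MCTP cells none of the 10 passed the threshold of limma (median 0.02). Hif1a, which encodes the oxygen-regulated subunit of the hypoxia factor, fell by 0.40 in shNsd2 cells (SE 0.0771, adjusted p = 0.0027) and by 0.74 in MCTP cells (SE 0.148, adjusted p = 0.0084). Egln3, a prolyl hydroxylase gene that hypoxia induces, fell by 0.58 and by 0.45. Pparg fell by 0.37 and by 0.46 in the same groups.

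Promoter windows from RefSeq (GRCm38.p6, from 250 bases before to 50 bases after the start of a gene) were listed for 6 of 9 members. No window was listed for Prl2c2, Angptl4 or Thbs1. They were searched on both strands for TGANTCA (a form of the AP-1 motif with any middle base, where the consensus has C or G), ACGTG (core of the hypoxia response element) and CCGCCC (GC box), which occur in 7.81%, 19.6% and 35.7% of 32851 windows of 300 bases. The windows of the members held neither of the first 2 motifs. The GC box occurred 4 times for Vegfb, 2 times for Vegfc, 1 time for Nrp1 and 5 times for Nrp2, 2 times in 1 of the windows of Pgf, and not for Thbs2. The windows of the neuropilins are shown because Nrp1 fell in shNsd2 cells and Nrp2 in MCTP cells, with GC boxes in capitals; they lie at chr8:128358823-128359122 and chr1:62703067-62703366, both on the plus strand.
Nrp1: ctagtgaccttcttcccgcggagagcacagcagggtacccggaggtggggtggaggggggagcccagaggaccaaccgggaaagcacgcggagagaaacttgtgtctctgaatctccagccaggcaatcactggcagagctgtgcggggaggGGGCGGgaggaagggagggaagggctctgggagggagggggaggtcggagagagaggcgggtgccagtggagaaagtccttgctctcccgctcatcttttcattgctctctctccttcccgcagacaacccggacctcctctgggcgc
Nrp2: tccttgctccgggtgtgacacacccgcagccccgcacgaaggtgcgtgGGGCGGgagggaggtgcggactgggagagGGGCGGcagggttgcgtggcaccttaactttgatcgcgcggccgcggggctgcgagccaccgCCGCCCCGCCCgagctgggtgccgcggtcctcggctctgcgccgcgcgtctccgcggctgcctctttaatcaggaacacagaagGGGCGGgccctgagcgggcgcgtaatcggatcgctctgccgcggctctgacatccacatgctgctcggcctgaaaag
The window of Prl2c3 (chr13:12800030-12800329, minus strand) is shown as that of the nearest relative of Prl2c2 that has one. It held 1 match to TGANTCA, given in capitals, with an A in the middle and so outside the AP-1 consensus, and 1 core of the hypoxia response element.
Prl2c3: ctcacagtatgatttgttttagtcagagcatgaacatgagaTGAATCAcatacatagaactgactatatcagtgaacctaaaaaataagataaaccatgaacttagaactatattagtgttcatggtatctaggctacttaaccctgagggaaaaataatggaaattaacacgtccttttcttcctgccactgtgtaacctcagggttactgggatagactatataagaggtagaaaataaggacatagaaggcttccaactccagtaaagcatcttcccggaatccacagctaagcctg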

How the data were processed

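RNA from NPK cells was sequenced by the authors, who deposited log2 values for 12842 genes, already scaled between libraries. The submitters' processing notes name bcl2fastq 1.8.4, TopHat, Cufflinks, DESeq, DESeq2 and mm9, without order, and do not name the transform of these values; the study's methods give variance stabilization by DESeq2, from the authors, for its tumor profiles. Groups and replicate numbers came from the sample titles. Of 12 value columns, 3 matched no sample and were not used. Without counts, the depth is unknown and the tests planned for counts were not run.

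Each pair of groups was fitted with limma 3.58.1 in R 4.3.3 (lmFit, then eBayes with trend). P-values were adjusted by Benjamini and Hochberg over the genes of a comparison, with 0.05 as the threshold. Genes needed more than 3.78, the median among the lowest 10% of values, in at least 3 of 6 libraries. The fit was tested on simulated data. Named were all members, the silenced gene, genes of the lists past the threshold with an absolute log2 difference above 0.3, the highest gene of each list, and the 5 genes most like Prl2c2; a few more are given as relatives of these. The members and lists were chosen with earlier results of these data known, and some genes of these pathways and marker lists, and some alleles of the cells, are not reported here. Of the gene identifiers, 12513 (97.4%) were found in GENCODE M21 (GRCm38), the source of coordinates, GC content and transcripts; promoters came from RefSeq. Alternatives were a fit of all 9 libraries, no filter, a replicate block, leaving out each library, quantile normalization, median centring, no trend, and a GC correction (lowess span 0.3), which also removes real change that follows GC content. Plots were made by matplotlib 3.10.9 (Python 3.11.15).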

Additional observations from a re-analysis of the deposited data

How the results depend on the processing

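The calls for Angptl4 and Thbs1 in all 3 comparisons, for Vegfc, Nrp1 and Thbs2 between shNsd2 and control cells, for Nrp2 and Thbs2 between MCTP and control cells, and for Vegfc, Nrp1 and Nrp2 between shNsd2 and MCTP cells kept their direction and stayed past the threshold under each alternative run. Those of Vegfb, Pgf and Nrp1 that did not are given with their values above. Between shNsd2 and control cells, the difference of Vegfb, 0.01, ranged from -0.0421 (without control replicate 1) to 0.0389 with each library left out, was -0.0272 without shNsd2 replicate 1 and -0.0752 after the GC correction. Between shNsd2 and MCTP cells, that of Pgf, -0.04, was -0.0034 after quantile normalization and 0.0084 after the GC correction, that of Prl2c3, 0.14, was -0.0133 after the GC correction and ranged from 0.0619 (without MCTP replicate 1) to 0.264 (without MCTP replicate 2) with each library left out, and that of Thbs2, 0.02, ranged from -0.0573 (without MCTP replicate 3) to 0.0889 and was -0.0024 without shNsd2 replicate 2. None of these had passed the threshold where tested, and the cause was not tested.

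With each library left out, the genes past the threshold numbered 4340 to 6018 between shNsd2 and control, 2046 to 7384 between MCTP and control, and 3391 to 7781 between shNsd2 and MCTP cells, against 5836, 4305 and 5276 with every library. The highest counts of both MCTP comparisons came without MCTP replicate 2. The replicate numbers were not taken to pair the libraries. The mean correlation of same-numbered deviations was -0.251, -0.186 and -0.361, with single values from -0.805 to 0.612. With 3 libraries in a group, these values cannot settle whether libraries were paired. With the replicate block, 4515, 3399 and 3794 genes passed. With it Nrp1 between MCTP and control cells (adjusted p = 0.0696) and Vegfb between shNsd2 and MCTP cells (0.0918) no longer passed, and no other call of a member changed. Depth limits could not be given without counts.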
